A study of Mus musculus with 4 samples.

Results

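The 9 genes described here belong to the gamma-delta T cell receptor and to the interleukin-17 (IL-17) program, and they were followed in single-cell RNA sequencing of mouse ascites, the fluid that fills the peritoneal cavity of tumor-bearing mice. They were taken by symbol from the list of 32285 measured genes, and all 9 of 9 were found: Trdc, Trdv4, Tcrg-V6, Il23r, Il1r1, Cd163l1, Blk, Il17a and Il17f. They were read in every library and in barcodes that carried T cell transcripts. The mice were female FVB animals (FVB/NJ in the methods), about 4 to 6 weeks old when bought according to the methods, injected intraperitoneally with Br-Luc cells, a single mouse ovarian cancer cell line that lacks p53 and Brca1 and carries Myc and activated Akt (p53-/-; brca1-/-; myc; Akt-myr). They received jetPEI nanoparticles loaded with a control siRNA (labelled siCont) or with an siRNA against Fxr1 (labelled siFXR1-LNA). Per the methods, both siRNAs carried locked nucleic acids. Ascites was taken 6 weeks after the tumor cells. The comparison of the 2 groups asks how the RNA-binding protein FXR1, when targeted, alters the immune cells of the ascites. There were 4 libraries, 2 in each group, and per the methods each pooled the fluid of 3 mice, so that single mice cannot be seen and p-values measure the spread between libraries.

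Gamma-delta T cells read antigen through a receptor of a gamma and a delta chain in place of the alpha and beta chains of conventional T cells. In mice, a wave of these cells made before birth carries the Vγ6 chain (Tcrg-V6) paired with Vδ1 (Trdv4), settles in barrier tissues, the uterus and the peritoneal cavity, and is programmed in the thymus to make IL-17. Interleukin-1β and interleukin-23 from myeloid cells act on these cells through Il1r1 and Il23r, and the IL-17A and IL-17F that they release acts on stromal and epithelial cells, which then call in neutrophils.

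Both variable segments are shown because they had the most UMIs of the listed gamma and delta segments in each library. Trdv4 lies at chr14:54074905-54075515 on the plus strand and Tcrg-V6 at chr13:19190356-19190929 on the plus strand (GRCm38). Trdc, the delta constant gene, lies at chr14:54142851-54148868, and Tcrg-C1, the constant gene joined to Tcrg-V6, at chr13:19214103-19217024. The last 90 coding bases of each V segment follow, at chr14:54075426-54075515 and chr13:19190840-19190929, with capitals for the codons that end in TGT, the conserved cysteine where the junction with the joining segment begins.
Trdv4: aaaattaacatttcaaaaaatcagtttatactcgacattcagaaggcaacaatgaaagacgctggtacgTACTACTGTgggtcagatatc
Tcrg-V6: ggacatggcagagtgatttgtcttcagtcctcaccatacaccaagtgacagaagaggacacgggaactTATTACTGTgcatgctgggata

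Among the genes that sit downstream or act as sensors, Il17a (chr1:20730905-20734496, plus strand) and Il17f (chr1:20777146-20790617, minus strand) are neighbours, and Il23r lies at chr6:67422932-67491855 on the minus strand.

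The deposited values were counts of unique molecular identifiers (UMIs), one for each captured transcript. Library totals were 101500063 and 88346685 UMIs in siCont replicates 1 and 2 and 113606837 and 78179267 in siFXR1-LNA replicates 1 and 2. After the filters of the study's methods, 36311, 25115, 54344 and 16874 barcodes were kept, with medians of 1965, 2511, 1349 and 2653 UMIs. Hemoglobin transcripts took 30.5%, 43.0%, 10.2% and 10.2% of the UMIs in the same order, so the siCont libraries stood apart in red cell RNA. A barcode entered the T gate with at least 2 UMIs of Cd3d, Cd3e and Cd3g, the signalling chains of every T cell receptor. These limits left many more barcodes than the cells that the methods count after the same limits, for a reason not given in the sources used here, so a kept barcode need not be a cell of the study. The gate took 1893 and 2005 barcodes of the siCont libraries and 289 and 827 of the siFXR1-LNA libraries, which were 5.21%, 7.98%, 0.532% and 4.90% of those kept. The first siFXR1-LNA library therefore stood apart with few T cells, and the second had the fewest UMIs and kept barcodes of the 4. A fit without 1 library leaves its group with 1 library and no spread of its own, so that library was assumed to vary like the other group. The libraries shared 8238 kept barcode sequences, of which 4 were in the T gate and 0 carried Trdc. Counting intervals below are 95% exact binomial and cover counting error only.

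The target of the siRNA was read first. Levels are given as CPM, the UMIs of a gene scaled to one common total for every gate and library (1000000 UMIs). Fxr1 in T gate barcodes was 61.2 and 48.8 CPM in the siCont libraries and 109 and 72.9 CPM in the siFXR1-LNA libraries. Over all kept barcodes it was 55.8, 33.9, 104 and 71.8 CPM. These totals include hemoglobin, at 30.5%, 43.0%, 10.2% and 10.2% of the UMIs, which lowers the siCont values more. Whether their order holds without hemoglobin was not tested. Both siFXR1-LNA libraries were above both siCont libraries, so these sums showed no knockdown, and the difference in the T gate did not pass the test (log2 fold change 0.615 ± 0.285 (SE), edgeR quasi-likelihood test, adjusted p = 0.410). In barcodes rich in the tumor or mesothelial list (Wt1, Muc16, Krt8, Krt18, Krt19, Msln and Upk3b), which does not part tumor cells from mesothelial cells, it was 100 and 117 CPM in the siCont libraries and 134 and 116 CPM in the siFXR1-LNA libraries, and the groups overlapped. In none of these sums were both siFXR1-LNA libraries below the siCont libraries, so Fxr1 does not check the labels, on which the direction of every group difference below rests.

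The delta constant gene Trdc marked the gamma-delta cells of the gate. It was carried by 156 of 1893 T gate barcodes in siCont replicate 1 (8.24%), 90 of 2005 in siCont replicate 2 (4.49%), 16 of 289 in siFXR1-LNA replicate 1 (5.54%) and 190 of 827 in siFXR1-LNA replicate 2 (23.0%). These 452 barcodes were as deep as the rest of the gate, with medians of 2401, 2731, 2552 and 2826.5 UMIs against 2486, 2982, 2299 and 2954. In macrophage barcodes, which should lack the gene and had medians of 5355 to 8955 UMIs, at most 0.239% carried a Trdc UMI. The second siFXR1-LNA library was high and the other siFXR1-LNA library lay between the siCont libraries, so the groups overlapped.

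The receptor genes were found in the same barcodes. Trdv4, the Vδ1 segment, was present in 71.2%, 65.6%, 75.0% and 86.3% of the Trdc-positive T gate barcodes of siCont replicates 1 and 2 and siFXR1-LNA replicates 1 and 2. It was present in 9.44%, 2.25%, 4.40% and 20.9% of the Trdc-negative ones. Trdc-negative barcodes with Trdv4 were thus most frequent in the library that also had the most Trdc-positive ones. Tcrg-V6, the Vγ6 segment, was carried by 68.4%, 76.5%, 29.2% and 75.8% of the Trdv4-positive T gate barcodes, lowest in siFXR1-LNA replicate 1. At least 2 of the 3 receptor genes were found together in 227, 85, 16 and 263 T gate barcodes, or 12.0%, 4.24%, 5.54% and 31.8% of the gate. Over all kept barcodes there were 285, 102, 26 and 331 barcodes with any 2 of these 3 genes, and 5.26%, 12.7%, 7.69% and 3.63% of them carried the alpha chain constant gene Trac, against 17.3%, 25.9%, 12.5% and 13.8% of the other T gate barcodes.

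With Trdc set aside, since it made the split, 2 or more of the other 8 genes were detected in 74.4%, 68.9%, 93.8% and 94.7% of Trdc-positive T gate barcodes and in 9.73%, 2.72%, 9.16% and 23.1% of Trdc-negative ones. The 8 still held Trdv4, the variable part of the same delta chain as Trdc. None of the 9 was seen in 77.1%, 88.1%, 80.6% and 52.6% of the gate. Most T gate barcodes in these libraries thus carried none of the genes, and siFXR1-LNA replicate 2 was the richest in them.

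Trdc-positive and Trdc-negative T gate barcodes were next compared within libraries, with UMIs summed for each of the 4 libraries and Trdc itself set aside because it made the split. Of the 8 other genes, 6 passed the filter on low counts and all 6 were higher in Trdc-positive barcodes, with a median log2 fold change of 2.97. Among the 6, Trdv4 is the variable part of the delta chain whose constant part is Trdc, so its rise was not independent of the split. Over all 8093 genes tested, 6.50% were called, 2.92% higher and 3.58% lower, and the median log2 fold change was -0.0247. The calls for all 6 stood in every alternative, including the fits without any one library.

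The variable segments differed most. Trdv4 was at 865, 943, 674 and 1169 CPM in the Trdc-positive barcodes of siCont replicates 1 and 2 and siFXR1-LNA replicates 1 and 2, and at 89.1, 20.2, 24.1 and 180 CPM in the Trdc-negative ones. Its log2 fold change was 3.78 ± 0.330 (SE, 4 libraries, edgeR adjusted p = 1.52e-06), higher in 4 of 4 libraries with no overlap. Tcrg-V6 was at 367, 497, 157 and 610 CPM against 43.5, 10.9, 12.7 and 103 CPM (log2 fold change 3.49 ± 0.334, edgeR adjusted p = 3.49e-06).

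Cd163l1 and Blk rose with the receptor. Cd163l1 encodes SCART1, a scavenger receptor family protein found on IL-17-making gamma-delta T cells. Its level was 491, 759, 831 and 718 CPM in Trdc-positive barcodes and 64.2, 26.2, 52.1 and 184 CPM in Trdc-negative ones (log2 fold change 3.21 ± 0.319, edgeR adjusted p = 5.15e-06). All Trdc-positive values lay above all Trdc-negative values. Blk, a Src family kinase of B cells that is also needed for IL-17-making gamma-delta cells, was at 167, 201, 135 and 270 CPM against 29.0, 16.2, 20.3 and 51.5 CPM (log2 fold change 2.72 ± 0.203, edgeR adjusted p = 3.27e-07).

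The cytokine receptors were higher as well. Il23r, the specific chain of the interleukin-23 receptor, was at 50.6, 98.8, 315 and 47.0 CPM in Trdc-positive barcodes and 10.2, 8.31, 8.89 and 17.9 CPM in Trdc-negative ones (log2 fold change 2.66 ± 0.378, edgeR adjusted p = 0.000155). The value of 315 CPM in siFXR1-LNA replicate 1 rested on 14 UMIs in 10 of 16 barcodes. Il1r1, the signalling receptor for interleukin-1, was at 88.0, 112, 247 and 192 CPM against 13.0, 8.45, 26.7 and 63.7 CPM (log2 fold change 2.45 ± 0.283, edgeR adjusted p = 1.92e-05). Again no Trdc-positive value overlapped a Trdc-negative one. In siFXR1-LNA replicate 1 the Trdc-positive values of Tcrg-V6, Blk and Il1r1 rested on 7, 6 and 11 UMIs.

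The size of these rises was compared between the groups as an interaction in the same fit. The interaction passed below 0 for 4 of the 6 genes (Trdv4, Tcrg-V6, Cd163l1 and Il1r1) and 2 did not pass, where 0.828% of the 8093 genes were called and 0.519% were lower. The libraries of the 2 groups overlapped for each of the 4. Trdc-positive over Trdc-negative CPM of Trdv4 was 9.70 and 46.7 in the libraries labelled siCont and 27.9 and 6.50 in those labelled siFXR1-LNA. It was 8.44, 45.5, 12.4 and 5.90 for Tcrg-V6, 7.64, 29.0, 16.0 and 3.91 for Cd163l1 and 6.76, 13.3, 9.26 and 3.02 for Il1r1. For each, siFXR1-LNA replicate 1 lay between the siCont libraries and only siFXR1-LNA replicate 2 was below both. Those 4 calls were lost in DESeq2, without siCont replicate 2, without siFXR1-LNA replicate 2 and once barcodes rich in another marker list were removed.

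The cytokine Il17a was too rare for this fit. Trdc-positive barcodes held 3, 1, 22 and 30 of its UMIs, or 6.60, 3.41, 494 and 41.5 CPM, and Trdc-negative ones held 1, 0, 5 and 28, or 0.186, 0, 6.35 and 12.2 CPM. Il17a was thus higher beside Trdc in each library, and in siFXR1-LNA replicate 2 almost as many of its UMIs lay in barcodes with no Trdc UMI. Il17f had no UMI in any Trdc-positive T gate barcode.

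**Figure D1:**
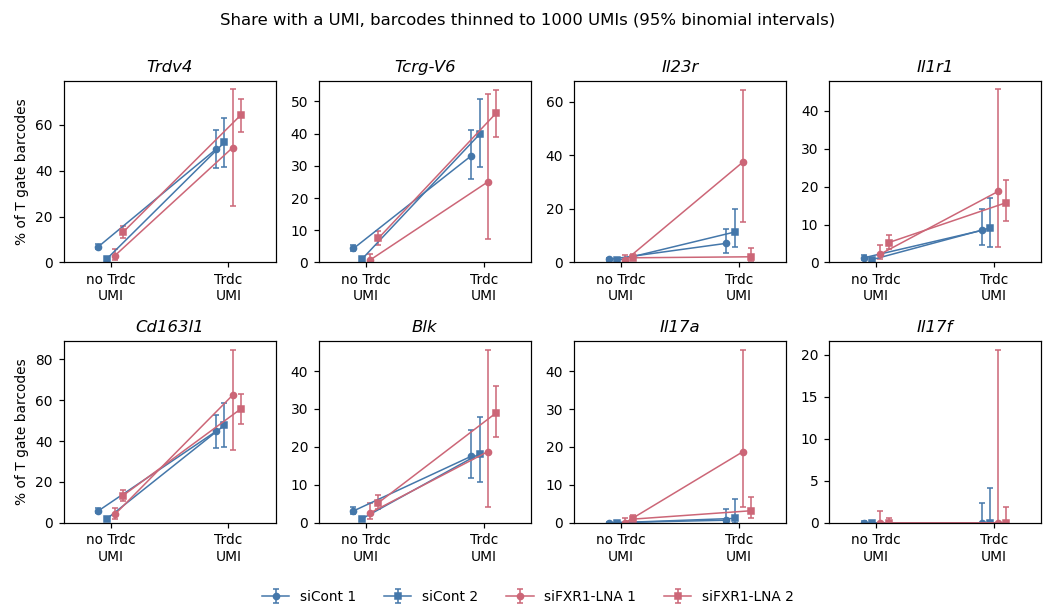
Share of T gate barcodes with at least 1 UMI of each gene (vertical axis, percent) in barcodes without and with a Trdc UMI, after each barcode was thinned to 1000 UMIs, with a line for each library and 95% exact binomial intervals. In all 4 libraries the line climbs for Trdv4, Tcrg-V6, Il23r, Cd163l1, Il1r1, Blk and Il17a (for Il17a on a single barcode in each siCont library), with a mean gain from 5.69 percentage points for Il17a (1.33 without siFXR1-LNA replicate 1) to 47.9 for Trdv4, and Il17f stays at 0.

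The same was asked with barcodes thinned to 1000 UMIs each, so that depth could not differ. The share with a UMI was higher in Trdc-positive barcodes in 4 of 4 libraries for 7 of 7 genes other than Il17f, whereas 6.02% of all genes detected widely enough did so. Trdv4, a part of the same delta chain as Trdc, was among the 7. The mean gain was 47.9 percentage points for Trdv4, 46.5 for Cd163l1, 32.7 for Tcrg-V6, 17.9 for Blk, 13.4 for Il23r, 10.7 for Il1r1 and 5.69 for Il17a. Without siFXR1-LNA replicate 1, which has 16 Trdc-positive barcodes, the gain was 1.33 for Il17a and 5.67 for Il23r, and leaving out 1 library gave 1.33 to 7.36 and 5.67 to 17.8. In each siCont library the Il17a share rested on a single Trdc-positive barcode, 1 of 154 and 1 of 88. In siCont replicate 2 no barcode of either kind carried Il17a when thinned to 500 or to 2000 UMIs, so that it was then not higher in 4 of 4. The narrowest gap of Il23r was in siFXR1-LNA replicate 2, 2.11% against 1.74%. With 4 libraries, an exact sign-flip permutation test (two-sided) cannot go below p = 0.125, which was reached for each of the 7 at 1000 UMIs, while for Il17a the exact p was 0.25 at 500 and at 2000 UMIs.

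The other genes of the gamma-delta receptor loci followed. Of 13 further receptor genes 4 could be tested, and all 4 were higher with Trdc (median log2 fold change 3.05): Tcrg-C1, Tcrg-V5, Tcrg-C4 and Tcrg-C2. Tcrg-C1 was at 176, 238, 225 and 217 CPM in Trdc-positive barcodes. The gamma constant genes are close copies and the V segments share sequence, so reads among them may have been split.

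Most tested transcription factors and surface genes known from type 17 lymphocytes were higher. Of 26 listed, 23 were tested, 17 were higher, 1 was lower and 5 did not pass, with a median log2 fold change of 1.69. Over all 8093 genes tested, 2.92% were higher and 3.58% lower. The lists in this comparison were chosen with earlier results of these data known. The largest rises were of Sox13 (3.09 ± 0.390), a factor that commits gamma-delta thymocytes to the IL-17 fate, of Actn2 (2.97 ± 0.266), an actinin, of Il12rb1 (2.39 ± 0.364), the chain that pairs with Il23r, and of Ltb4r1 (2.34 ± 0.199), a receptor for leukotriene B4. Ltb4r1 was at 139, 211, 202 and 212 CPM with Trdc. Il7r, the interleukin-7 receptor, was the one that fell (-0.454 ± 0.130, edgeR adjusted p = 0.0444), and Icos, Il1rap, Sox4, Stat3 and Batf did not pass. Among type 17 cytokines other than IL-17, only Tnf of 6 could be tested and it rose (2.04 ± 0.265).

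Genes of conventional T cells were lower beside Trdc. Of 6 alpha-beta receptor and coreceptor genes all 6 were tested and 4 fell: Cd8b1 (-3.39 ± 0.237), Cd8a (-3.34 ± 0.369), Cd4 (-3.13 ± 0.317) and Trac (-1.57 ± 0.249), while Trbc1 and Trbc2 did not pass. Of 6 naive and regulatory genes 5 were tested and 5 fell, led by Ccr7 (-2.88 ± 0.342), the lymph node homing receptor, and Tcf7 (-2.22 ± 0.324), a factor of naive T cells. Of 9 type 1 genes 6 were tested and 2 fell, Cd27 (-2.17 ± 0.509) and Nkg7 (-1.36 ± 0.309). Cd27 is known to separate interferon-γ-making gamma-delta cells from those that make IL-17.

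Genes on either side of the IL-17 axis were counted next. None of the 3 tested of 9 upstream cytokines passed. Of 15 IL-17 receptor, signalling and target genes 9 were tested, 1 was higher and 3 were lower: Il17re, a receptor chain for IL-17C, rose (1.82 ± 0.289) and S100a9 (-1.53 ± 0.171), S100a8 (-1.46 ± 0.163) and Cxcl2 (-0.907 ± 0.226) fell. Those 3 are abundant neutrophil or myeloid transcripts. The sum of the neutrophil genes Csf3r, Cxcr2, Ly6g and Retnlg was lower with Trdc in each library as well. This sum was 11.0 against 19.5 CPM and 112 against 140 CPM in siCont replicates 1 and 2. In siFXR1-LNA replicates 1 and 2 it was 135 against 310 CPM and 557 against 1202 CPM. Not every gene of the list was lower in each library. In siCont replicate 2 Retnlg was at 51.1 against 108 CPM, and the rest of the sum was higher with Trdc. Across all genes, the 8 largest rises with one direction in all 4 libraries also held Prr29 (3.37 ± 0.464), Tdrd9 (3.19 ± 0.359) and Ly6g5b (3.12 ± 0.331). The 8 largest falls also held the beta chain segments Trbv13-1 (-4.49 ± 0.562) and Trbv3 (-3.56 ± 0.416), Izumo1r (-3.55 ± 0.523), the costimulatory receptor Cd28 (-3.29 ± 0.300), Dapl1 (-3.14 ± 0.497) and Gm44174, which was listed at 0 UMIs in all Trdc-positive barcodes and at 20.3 to 32.3 CPM in the others.

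The libraries labelled siFXR1-LNA were then compared with those labelled siCont over the whole T gate. Il17a was the 1 gene of the 8 tested that passed, and it was higher. The other 7 did not pass and none was lower. The filter on low counts let Il17a in only through the siFXR1-LNA libraries, the group in which it was high. Over all 12521 genes tested, 1.43% were called, 0.711% higher and 0.719% lower. The median log2 fold change of the 8 was 1.30, against -0.0218 over all genes. In sums over a gate, fewer cells of a type and less RNA per cell cannot be told apart. Without the filter on low counts Trdc, Trdv4, Tcrg-V6, Cd163l1, Il1r1 and Blk also passed (edgeR adjusted p from 1.22e-08 to 0.0195), and so did these 6 in the fit without siCont replicate 1 (0.000214 to 0.0341), which keeps a single siCont library, the lower one for all 6.

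**Figure D2:**
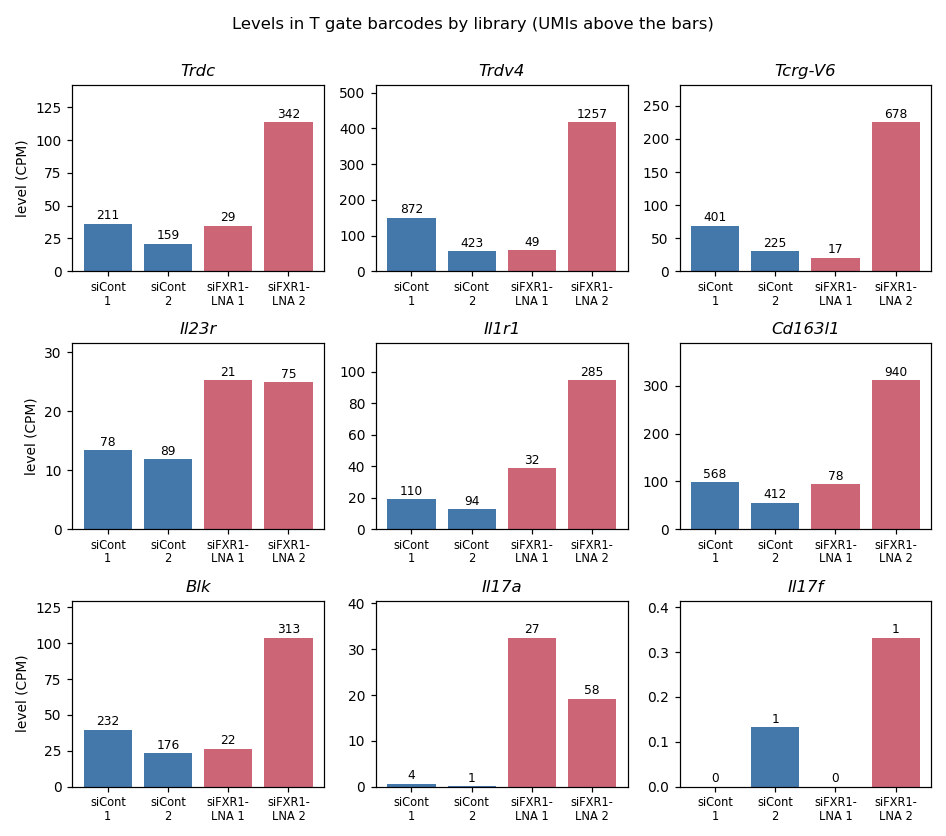
Level of each of the 9 genes in T gate barcodes (vertical axis, CPM, from 0, with its own scale in each panel) in each of the 4 libraries, with the number of UMIs above each bar. siFXR1-LNA replicate 2 is the highest of the 4 for Trdc (113 CPM), Trdv4 (417), Tcrg-V6 (225), Cd163l1 (312), Blk (104) and Il1r1 (94.5), while Il17a is near 0 in both siCont libraries.

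Il17a had 4 UMIs in siCont replicate 1, 1 in siCont replicate 2, 27 in siFXR1-LNA replicate 1 and 58 in siFXR1-LNA replicate 2, or 0.686, 0.133, 32.5 and 19.2 CPM. Both siFXR1-LNA libraries were above both siCont libraries. The log2 fold change was 5.84 ± 0.688 (SE, 2 against 2 libraries, edgeR adjusted p = 0.0168). The call was lost in the fit without siFXR1-LNA replicate 1 (edgeR adjusted p = 0.0816), in that without siFXR1-LNA replicate 2 (0.104) and with a T gate of 1 UMI (0.0539), while the log2 fold change stayed between 4.80 and 7.11.

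Few barcodes carried these transcripts. Il17a was found in 4, 1, 8 and 16 T gate barcodes. In the siCont libraries each of them held 1 UMI, whereas in siFXR1-LNA replicate 1 the 3 barcodes with 2 or more UMIs held 22 of the 27 UMIs, and in siFXR1-LNA replicate 2 the 6 such barcodes held 48 of the 58. The richest barcode had 15 UMIs in the former and 16 in the latter. At least 1 receptor gene was seen in 4 of 4, 1 of 1, 7 of 8 and 15 of 16 Il17a-positive barcodes, and Trac in 1, 0, 1 and 0. Cd163l1 was seen in 3, 1, 6 and 12 of them and Il23r in 0, 1, 2 and 7. Of T gate barcodes without Il17a, 14.3%, 5.04%, 6.76% and 35.0% carried Trdv4 and 13.1%, 5.69%, 11.0% and 35.3% carried Cd163l1. Il23r was in 3.23%, 2.54%, 4.98% and 5.43% of those without Il17a.

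Pooled by group, 24 of 1116 T gate barcodes (2.15%) of the siFXR1-LNA libraries and 5 of 3898 (0.128%) of the siCont libraries carried Il17a, a ratio of 16.8 (95% interval 6.27 to 56.3, counting error only and not the spread between libraries). By library the shares were 0.211% and 0.0499% in siCont replicates 1 and 2, so the siCont shares pooled in this ratio differed. They were 2.77% and 1.93% in siFXR1-LNA replicates 1 and 2. After thinning to 1000 UMIs the shares were 0.0537%, 0.0506%, 1.04% and 1.46%, and the siCont values then each rested on a single barcode. Il17f was seen in 0, 1, 0 and 1 T gate barcodes, and the absence from 1893 and 289 barcodes allows shares of barcodes with a UMI up to 0.158% and 1.04% at 3 counts, or 0.195% and 1.27% as exact binomial upper bounds.

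The cytokine receptors were read next. Il1r1 was at 18.9 and 12.5 CPM in the siCont libraries and 38.5 and 94.5 CPM in the siFXR1-LNA libraries, with no overlap, and did not pass (log2 fold change 2.04 ± 0.420, edgeR adjusted p = 0.0891). It passed in DESeq2 (adjusted p = 0.00220), with a gate of 3 UMIs (edgeR adjusted p = 0.0194), and in the 2 fits that keep a single siCont library (0.000214 without replicate 1 and 0.0104 without replicate 2). Without siFXR1-LNA replicate 2 its log2 fold change was 1.24 (0.282), and without siFXR1-LNA replicate 1 it was 2.47 (0.0602). Il23r was at 13.4, 11.8, 25.2 and 24.9 CPM, also with no overlap (0.886 ± 0.279, edgeR adjusted p = 0.231).

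The receptor and surface genes overlapped between groups. Trdc was at 36.2, 21.2, 34.9 and 113 CPM (log2 fold change 1.33 ± 0.502, edgeR adjusted p = 0.311). Trdv4 was at 150, 56.3, 58.9 and 417 CPM (edgeR adjusted p = 0.607) and Tcrg-V6 at 68.8, 29.9, 20.4 and 225 CPM (0.583). Cd163l1 was at 97.4, 54.8, 93.8 and 312 CPM (0.339) and Blk at 39.8, 23.4, 26.5 and 104 CPM (0.477). In each of these 5, siFXR1-LNA replicate 2 was the highest library and siFXR1-LNA replicate 1 was below siCont replicate 1. Without siFXR1-LNA replicate 2 the log2 fold changes of Trdv4, Tcrg-V6 and Blk turned to -0.846, -1.31 and -0.304, and those of Trdc and Cd163l1 were 0.235 and 0.253.

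**Figure D3:**
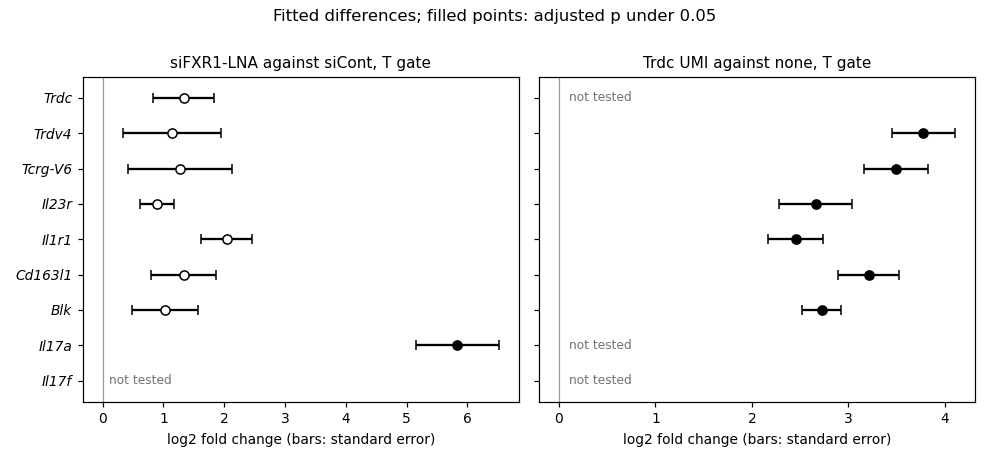
Log2 fold changes of the 9 genes (points, bars are standard errors) between siFXR1-LNA and siCont libraries over the T gate on the left, and between T gate barcodes with and without a Trdc UMI on the right. Filled points passed an adjusted p of 0.05, which was Il17a at 5.84 on the left and all 6 tested genes on the right.

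As thinned shares of the T gate, Il17a, Il23r and Il1r1 did not overlap between the groups, which was 3 of 8 genes, and of all genes detected widely enough 23.2% did so in the same direction, 17.8% in the other and 41.1% in either. The differences were 1.20, 0.885 and 3.92 percentage points. Leaving out 1 library gave 0.986 to 1.41 for Il17a, 0.414 (without siFXR1-LNA replicate 1) to 1.36 for Il23r and 1.64 (without siFXR1-LNA replicate 2) to 6.20 for Il1r1. With a T gate of 1 UMI the Il23r difference turned to -0.160 percentage points. An exact permutation test of 2 against 2 libraries (two-sided) cannot go below p = 0.333, the value for all 3.

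Within Trdc-positive T gate barcodes the group difference was tested again, in barcodes that all carried the delta chain. Of the 8 genes other than Trdc, 7 were tested and 0 passed, with a median log2 fold change of 0.140; of the 5673 genes tested 0.617% were called, 0.212% higher and 0.405% lower. Il17a was at 6.60, 3.41, 494 and 41.5 CPM (log2 fold change 4.78 ± 1.33, edgeR adjusted p = 0.282). Here too it met the filter on low counts only through the siFXR1-LNA libraries. Its log2 fold change was 2.76 without siFXR1-LNA replicate 1, 6.17 without siFXR1-LNA replicate 2 and 5.29 without siCont replicate 1. Each of these fits keeps a single library in a group, so the spread came from the other group alone. In siFXR1-LNA replicate 1 the 22 UMIs of Il17a lay in 4 of the 16 Trdc-positive barcodes. Il17a passed with no filter on low counts (edgeR adjusted p = 3.25e-07) and in DESeq2 (adjusted p = 0.00230). Il1r1 had a log2 fold change of 0.908 (edgeR adjusted p = 0.669), and Il23r, Trdv4, Tcrg-V6, Cd163l1 and Blk lay between -0.160 and 0.410. The first siFXR1-LNA library gave only 16 barcodes and 44543 UMIs to this comparison.

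The remaining lists gave few calls between the groups. In the T gate, 0 of 8 tested gamma-delta receptor genes passed in edgeR, and the same held for 0 of 25 type 17 regulators and surface genes, 0 of 2 cytokines, 0 of 6 alpha-beta genes, 0 of 6 naive and regulatory genes, 0 of 9 type 1 genes and 0 of 5 upstream cytokines. Their median log2 fold changes were 0.709, 0.271, 0.162, -0.453, -0.614, -0.846 and 1.99. Of 12 IL-17 receptor, signalling and target genes tested, 1 was higher, the neutrophil chemokine Cxcl2, at 0.515, 5.99, 248 and 458 CPM (log2 fold change 6.57 ± 0.868, edgeR adjusted p = 0.0244). That call was lost without siFXR1-LNA replicate 1 (edgeR adjusted p = 0.0708) and without siFXR1-LNA replicate 2 (0.130). Within Trdc-positive barcodes 2 of 9 were higher, Lcn2 at 2.20, 10.2, 292 and 1814 CPM and Cxcl2 at 0, 0, 67.4 and 322 CPM, which in siFXR1-LNA replicate 1 were 13 and 3 UMIs. Both met the filter on low counts only through the siFXR1-LNA libraries, where they were high.

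Markers of other cells moved with the groups in the same T gate. The neutrophil list (Csf3r, Cxcr2, Ly6g and Retnlg, 4 of 4 detected in each library) summed to 18.9, 139, 301 and 1048 CPM, led by Csf3r at 8.92 CPM in the first library and by Retnlg at 106, 255 and 978 CPM in the others. In Trdc-positive barcodes it summed to 11.0, 112, 135 and 557 CPM. The mast cell list (5 of 5 detected, led by Cma1) summed to 1618, 653, 49.3 and 98.5 CPM and the B cell list (4 of 4, led by Cd79a) to 331, 292, 67.3 and 51.1 CPM. Hemoglobin genes (4 of 4, led by Hbb-bs) summed to 147481, 139935, 58097 and 27749 CPM. The dendritic cell list, led by Cd209a in the siCont libraries, summed to 121, 130, 8.42 and 22.2 CPM, the natural killer list, led by Klrk1, to 42.9, 57.6, 7.21 and 22.9 CPM, and the plasma cell list, led by Mzb1, to 111, 45.8, 3.61 and 6.63 CPM. All of these but the neutrophil list were lower in both siFXR1-LNA libraries than in both siCont libraries. The macrophage list (1349, 626, 602 and 1025 CPM) and the tumor or mesothelial list (617, 162, 622 and 474 CPM) had no such order of all 4 values. The part of free RNA or doublets in the values of Cxcl2, Lcn2 and Il17a was not tested. No caller of doublets was run. Outside the T gate, 0, 0, 0 and 1 Il17a-positive barcodes were in the neutrophil class and 0 in the macrophage class of any library. Of the Il17a-positive barcodes with no Cd3 UMI, 0 of 2, 0 of 1, 4 of 5 and 2 of 5 were rich in no list. The T gate log2 fold change of Il17a was 5.49 (edgeR adjusted p = 0.0332) once barcodes rich in another list were removed.

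Over all kept barcodes, with no gate, 0 of the 8 tested genes passed and 0% of the 17939 genes tested were called by edgeR, where 3499 had an unadjusted p under 0.05 and DESeq2 called 823 higher and 1172 lower. Il17a had 8, 2, 34 and 63 UMIs (log2 fold change 3.25, edgeR adjusted p = 0.183). It again met the filter on low counts only through the siFXR1-LNA libraries. Trdc was at 3.48, 2.48, 0.732 and 6.34 CPM, lowest and highest in the siFXR1-LNA libraries. Il1r1 was at 5.70, 3.47, 18.8 and 35.3 CPM (log2 fold change 2.34, edgeR adjusted p = 0.130) and Blk at 19.3, 19.3, 2.73 and 10.8 CPM (-1.80, edgeR adjusted p = 0.247), so that the former was above and the latter below the siCont libraries in both siFXR1-LNA libraries. In DESeq2 Il17a (adjusted p = 0.0123), Il1r1 (9.33e-06) and Blk (0.0378) passed, and Il1r1 also passed in edgeR with no filter (adjusted p = 0.0336). Leaving out 1 library gave log2 fold changes of 2.35 to 4.09 for Il17a, 1.88 to 2.69 for Il1r1 and -3.03 to -1.14 for Blk, where the lowest of each was without siFXR1-LNA replicate 2.

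**Figure D4:**
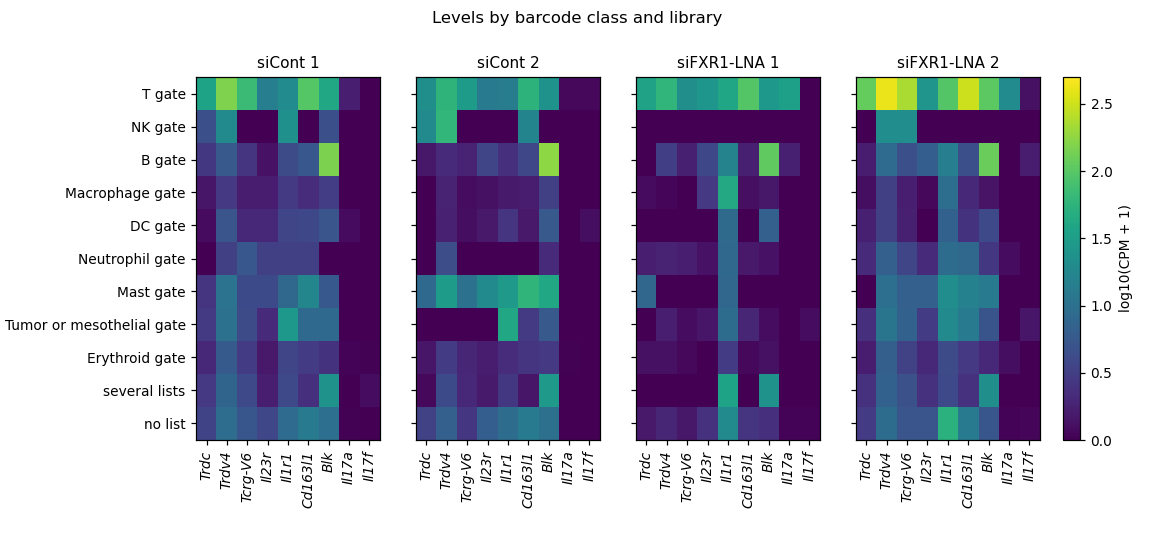
Level of the 9 genes (columns, colour is log10 of CPM plus 1) in the barcode classes of each library (rows), where a class holds barcodes rich in the marker list that names it. The T gate row is the brightest for Trdc, Tcrg-V6 and Il17a in every library and for Trdv4 and Cd163l1 in all but siCont replicate 2, Blk is bright in the B gate at 109 to 174 CPM, and Il1r1 spreads to the macrophage and no list rows of the siFXR1-LNA libraries.

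The barcode classes showed where each gene was found. The T gate held 61.9%, 76.1%, 35.8% and 77.7% of the Trdc UMIs, and similar parts of Trdv4 (63.6%, 67.6%, 35.0% and 73.1%), Tcrg-V6 (65.0%, 76.5%, 27.0% and 74.3%) and Cd163l1 (55.4%, 65.3%, 35.9% and 62.2%). Barcodes rich in no marker list held a further 15.8%, 8.61%, 53.1% and 17.3% of the Trdc UMIs. Il23r had 42.4%, 46.8%, 13.1% and 28.0% of its UMIs in the T gate. In siCont replicate 2, 65 barcodes of the natural killer gate reached 59.7 CPM of Trdv4 (23 UMIs) and 598 of the mast gate 57.3 CPM of Cd163l1 (31 UMIs) and 18.5 CPM of Il23r (10 UMIs), above the T gate of that library for each.

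Most UMIs of Blk and Il1r1 lay outside the T gate in these libraries. The T gate held 12.2%, 10.8%, 7.28% and 41.8% of the Blk UMIs and the B gate 65.6%, 64.9%, 50.3% and 26.8%. In the B gate its level was 146, 174, 109 and 120 CPM, and 30.7%, 37.8%, 25.4% and 31.1% of barcodes carried it. For Il1r1 the T gate held 19.7%, 32.2%, 1.53% and 11.6% of the UMIs, and barcodes rich in no list held 29.5%, 21.6%, 71.9% and 78.2%. The macrophage gate of siFXR1-LNA replicate 1 reached 41.9 CPM of Il1r1, against 1.85 and 0.559 CPM in the siCont libraries and 8.52 CPM in siFXR1-LNA replicate 2.

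Genes most like Il17a were ranked by how much higher they were in T gate barcodes with an Il17a UMI than in those without, taking the smaller log2 ratio of the 2 siFXR1-LNA libraries, the ones with at least 5 such barcodes (8 and 16). The ranking took the 661 genes with at least 20 UMIs in the Il17a-positive barcodes, so that genes entered through the same barcodes in which they were then ranked as high. The first 10 were Cpm (2.75), Pdcd1 (2.37), Il1r1 (2.37), Odc1 (1.98), Blk (1.96), Osbpl3 (1.88), Zap70 (1.77), Trdc (1.75), Trdv4 (1.75) and Smox (1.70). Pdcd1, which encodes the inhibitory receptor PD-1, was at 173 and 221 CPM in Il17a-positive barcodes and at 23.8 and 41.9 CPM in the others. Over all libraries the Il17a-positive barcodes held only 24 UMIs of Pdcd1. The ratios are given without a test.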

How the data were processed

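Ascites cells were freed of red cells with ACK buffer and run on the 10x Genomics 3′ platform, named as v2 in the library protocol and as v3.1 in the series design. The deposited files hold unnormalized UMI counts of every gene in every barcode of the 4 libraries, made by the authors with Cell Ranger 7.0.0 on mm10 per the processing notes. The quality limits of the methods were applied, 100 to 4800 genes in a barcode and a mitochondrial share of no more than 15%. The methods left out one siFXR1-LNA replicate, unnamed, for its low read and cell numbers, and both were analysed; here replicate 2 had the fewest UMIs and kept barcodes and replicate 1 the fewest T gate barcodes. Counts were summed per library and gate, and tested with edgeR 4.0.16 (TMM, quasi-likelihood, filterByExpr, Benjamini-Hochberg over all genes tested, threshold 0.05) in R 4.3.3. Library was a block for Trdc-positive against Trdc-negative barcodes. DESeq2 1.42.0 was an alternative. The fits were tested on simulated data. T gate barcodes stayed in whatever other markers they carried: 21.7%, 24.9%, 7.27% and 15.4% passed another list at 3 times the level of their library, a limit chosen after seeing the data because a limit of 3 UMIs was passed very widely (for the mast list by 79.4% and 41.9% of kept siCont barcodes). Named genes were the 9 genes, up to 4 per list with the largest change past the threshold, the 8 largest rises and falls with Trdc, and the 10 genes most like Il17a. Il7r, the genes of other lists that did not pass, and Cd27 were named to complete small counts. The genes and lists were chosen with earlier results of these data known. One listed gene is not reported here. Positions and V segments come from GENCODE (GRCm38).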

Additional observations from a re-analysis of the deposited data

Results flagged for a closer look

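The rise of 4 genes with Trdc differed between the groups when the difference itself was tested as an interaction in edgeR, with library as a block, although the libraries of the groups overlapped. The interaction on the log2 scale was -1.23 ± 0.293 for Trdv4 (SE, adjusted p = 0.00691), -1.55 ± 0.311 for Tcrg-V6 (0.000519), -1.42 ± 0.289 for Cd163l1 (0.000539) and -1.41 ± 0.385 for Il1r1 (0.0354), and of the 8093 genes tested 0.828% were called. For each of the 4 the rise in siFXR1-LNA replicate 1 lay between those of the siCont libraries, and only siFXR1-LNA replicate 2 was below both: Trdc-positive over Trdc-negative CPM was 9.70, 46.7, 27.9 and 6.50 for Trdv4 and 7.64, 29.0, 16.0 and 3.91 for Cd163l1 in siCont replicates 1 and 2 and siFXR1-LNA replicates 1 and 2. Trdv4 and Cd163l1 in Trdc-negative barcodes were at 180 and 184 CPM in siFXR1-LNA replicate 2, the highest of the 4 libraries. DESeq2 called 0 genes, and the 4 calls were lost when barcodes rich in another list were removed, without siCont replicate 2 and without siFXR1-LNA replicate 2, where the Trdv4 interaction turned to 0.303. That of Il1r1 was also lost without siCont replicate 1. The share of gamma-delta cells without a Trdc UMI was not tested.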

How the results depend on the processing

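Log2 fold changes kept their direction and their side of the threshold in all 72 values (6 genes) for Trdc-positive against Trdc-negative barcodes, also without any one library. Between the groups, Il17a kept its direction in the T gate under every alternative, and its call was lost in 3 of them.

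Counts of genes moved more. In the T gate, where 89 were higher and 90 lower, there were 564 and 556 with no filter, 236 and 202 in DESeq2, 43 and 24 without barcodes rich in another list at 3 times the library level, 147 lower with a gate of 3 UMIs, and 54 lower without barcodes with 3 UMIs of another list. Leaving out a library gave 0 to 724 higher and 0 to 373 lower, with 0 called without siFXR1-LNA replicate 2. In Trdc-positive barcodes, 12 higher and 23 lower became 84 and 92 with no filter, 2 and 1 without barcodes rich in another list, and 8 lower with 3 UMIs of another list; leaving out a library gave 12 to 119 higher and 50 to 94 lower. Over all barcodes, 0 and 0 became 180 and 204 with no filter and 823 and 1172 in DESeq2, and 0 to 122 and 0 to 203 without a library. With Trdc, 236 higher and 290 lower became 443 and 582 with a gate of 1 UMI and 477 lower with no filter, and 144 to 269 and 159 to 298 without a library. The interaction gave 25 higher and 42 lower, 0 and 0 in DESeq2, 1 and 6 without barcodes rich in another list, and 1 to 44 and 6 to 45 without a library. The cause was not tested.

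The replicate numbers pair the samples by number only (correlation of deviations 0.220 over 12521 genes). With the replicate number as a block, 579 genes were higher and 383 lower in the T gate, 1 and 0 in Trdc-positive barcodes and 2068 and 2122 over all barcodes. Under it Il1r1 passed in the T gate (edgeR adjusted p = 0.00613), and Il17a (0.0356), Il1r1 (0.00660) and Blk (0.0147) passed over all barcodes. Under that block the log2 fold change of Blk in Trdc-positive barcodes was -0.00169, and over all barcodes Il23r was -0.0461, Trdv4 -1.04, Tcrg-V6 -0.912 and Cd163l1 -0.654.

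The other reversals were of values that did not pass, except the Trdv4 interaction. In Trdc-positive barcodes Blk was -0.000953 in DESeq2, and with a gate of 1 UMI Il23r was -0.0472 and Cd163l1 -0.0258. Over all barcodes Il23r was -0.00268 with at least 500 genes, and the share of T gate barcodes with Il23r differed by -0.160 percentage points with a gate of 1 UMI. Leaving out a library gave log2 fold changes in the T gate of -0.846 to 1.98 for Trdv4, -1.31 to 2.08 for Tcrg-V6 and -0.304 to 1.60 for Blk. In Trdc-positive barcodes they were -0.785 to 1.85 for Il23r, -0.672 to 0.214 for Trdv4, -1.70 to 0.344 for Tcrg-V6, -0.178 to 0.422 for Cd163l1 and -0.692 to 0.398 for Blk. Over all barcodes they were -0.740 to 0.587 for Il23r, -2.20 to 0.821 for Trdc, -3.23 to 0.970 for Trdv4, -3.25 to 1.18 for Tcrg-V6 and -2.37 to 1.01 for Cd163l1. The interaction ranged from -1.57 to 2.00 for Il23r and -2.31 to 0.303 for Trdv4. Share differences ranged from -0.413 to 7.92 percentage points for Trdc, -1.49 to 17.9 for Trdv4 and -2.62 to 11.7 for Tcrg-V6. Il17a in Trdc-positive barcodes could not be tested without barcodes with 3 UMIs of another list. The 289 T gate barcodes of siFXR1-LNA replicate 1 limit every value of that library.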

Other observations

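The labels name a 3′ kit, and V segments lie at the 5′ end of receptor transcripts, yet V segments had as many UMIs as constant genes or more in most libraries. In the T gate, Trdv4 had 872, 423, 49 and 1257 UMIs against 211, 159, 29 and 342 of Trdc in siCont replicates 1 and 2 and siFXR1-LNA replicates 1 and 2, or 4.13, 2.66, 1.69 and 3.68 UMIs for each Trdc UMI. Over whole loci, V segments gave 4.92, 4.28, 1.97 and 3.92 UMIs for each constant gene UMI for the delta chain, 1.75, 1.62, 1.03 and 2.39 for gamma, 1.42, 1.57, 0.585 and 1.94 for alpha and 1.85, 1.61, 0.636 and 1.11 for beta. The ratio was lowest in siFXR1-LNA replicate 1 for every chain.

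Other listed gamma and delta segments had fewer UMIs than Tcrg-V6 and Trdv4 in each library. Tcrg-V6 gave 401 of 679, 225 of 439, 17 of 33 and 678 of 990 gamma V UMIs in the T gate, and Trdv4 872 of 1038, 423 of 681, 49 of 57 and 1257 of 1342 delta V UMIs, where segments shared with the alpha chain count as delta. The next gamma segment was Trgv2, chosen after its values were seen, with 211, 142, 6 and 204 UMIs. In the same barcodes Tcrg-V4, the segment of another IL-17-making subset, had 19, 27, 4 and 16 UMIs, Tcrg-V1 24, 21, 1 and 33, Tcrg-V5 22, 17, 5 and 55, and Trdv2-2 7, 31, 4 and 25. Trdv5 had 26 and 21 UMIs in siCont replicates 1 and 2 against 0 and 2 with siFXR1-LNA (edgeR adjusted p = 0.235).

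Il17f was found mostly outside the T gate, where its 2, 1, 6 and 7 UMIs each lay in a barcode with no Cd3 UMI. None of these barcodes carried a receptor gene.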
